A study of Mus musculus with 14 samples.

Results

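The Schlafen genes form a family of mouse genes on chromosome 11, and the 7 members described here were chosen by symbol: Slfn1, Slfn2, Slfn3, Slfn4, Slfn5, Slfn8 and Slfn9, listed in the count table as SLFN1, SLFN2, SLFN3, SLFN4, SLFN5, SLFN8 and SLFN9. All belong to the cluster. They were 7 of 24982 rows in the table and 7 of 11 rows whose name starts with SLFN. All 7 passed the filter on low counts, which left 13136 genes to test. Expression was measured by RNA-seq in colonic lamina propria macrophages sorted from 5-week-old C57BL/6 mice as viable CD64+ CD11b+ leukocytes (CD45+) that were MHCII+ and Ly6C-, after exclusion of Ly6G+ and CD103+ cells, with 1 mouse per library.

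All mice, controls included, carried Cdcs1, a susceptibility locus for cytokine deficiency-induced colitis. The groups were WT mice with Cdcs1 alone (4 mice compared), mice that also lacked Il10ra (IL10RAKO, 4 mice) and mice that lacked both Il10ra and Ccr2 (DKO, 4 mice). IL10RA is the ligand-binding chain of the IL-10 receptor, and CCR2 is the chemokine receptor that monocytes use to leave the bone marrow. Both deletions were germline and so affected every cell of the mouse, not macrophages alone. The study describes controls as cohoused littermates, elsewhere as heterozygous for both deletions, and does not tie sex, litter or batch to single libraries. A further WT library (mouse 11) and a single library from a mouse lacking Ccr2 alone (CCR2KO, mouse 6) stood outside the study's own table of normalized values and are given as values only.

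Schlafen genes are known as interferon-inducible genes of immune cells that restrain growth. In mice they fall into short, intermediate and long forms: Slfn1 and Slfn2 are short, Slfn3 and Slfn4 intermediate, and Slfn5, Slfn8 and Slfn9 long, the long forms carrying a helicase-like part. Slfn2 is the best studied in immunity, since mice with a mutant Slfn2 (elektra) fail to keep T cells and monocytes quiescent. The comparisons ask how this family was expressed in macrophages from mice without Il10ra, and whether it differed with additional loss of Ccr2. The study reports spontaneous colitis in mice lacking Il10ra at about this age, less severe where Ccr2 was lacking too. It reports no histologic colitis in wild-type mice. Loss of the receptor in macrophages and inflammation of the colon therefore cannot be told apart in these comparisons.

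The family lay on chr11:82942341-83286726 (GRCm38, GENCODE vM21), a stretch of 344 kb with 10 annotated genes. Along it came Slfn5 and its antisense partner Slfn5os, then Slfn9, Slfn8 and the pseudogene Slfn10-ps on the minus strand, then Slfn2, Slfn1, Slfn4 and Slfn3 on the plus strand, and Slfn14 on the minus strand. The coding length was 1011 bases for Slfn1 and 1134 for Slfn2, 1806 for Slfn4 and 1920 for Slfn3, 2652 for Slfn5, and 2730 for both Slfn8 and Slfn9. Over aligned coding bases, Slfn8 and Slfn9 were 92.7% identical and Slfn3 and Slfn4 were 92.3% identical, and how the counting treated reads that match both of a pair is not stated. Slfn2 and Slfn1 were 71.3% identical, and no window of 150 bases in the transcripts of Slfn1, Slfn2, Slfn4, Slfn5 or Slfn8 occurred in another gene. Of such windows, 1.46% in Slfn9 also occurred in Slfn10-ps and 1.29% in Slfn3 in the gene model Gm11427. Exons of Slfn5os covered 8.84% of the exon bases of Slfn5, and because the strand setting of the counting was not stated, reads from this overlap cannot be told apart.

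Promoter sequences are shown because motif content differed within the cluster. RefSeq promoters (GRCm38.p6, 250 bases before to 50 after the start site) were found for all 7 members. They were searched on both strands for an interferon-stimulated response element (ISRE) core, 2 copies of GAAA separated by any 2 bases. The core occurred in Slfn5, Slfn8 and Slfn9 and in none of Slfn1, Slfn2, Slfn3 and Slfn4. It was present in 3.44% of 32851 promoters of the same length, and in 11 of the 17 classical antiviral interferon-stimulated genes with a promoter entry. A GAS element (TTC, any 3 bases, GAA) occurred in no member and in 8.3% of all promoters, and a PU.1 core (GAGGAAG) only in Slfn9, against 13.6% of all promoters. A match is a run of letters and does not show binding, and a missing match holds only for this window and these exact letters. In Slfn5 the ISRE match ran on into a stretch of A bases.

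The 4 short and intermediate members shared 1 run of 9 bases, ACTTCCTGG, the longest run common to their promoters. Read on the other strand, this run held all but the first base of the PU.1 core searched above. It ended 66 bases before the start site in Slfn1, 47 in Slfn2, 34 in Slfn3 and 65 in Slfn4. The run was absent from the promoters of Slfn5, Slfn8 and Slfn9 and was held by 0.843% of all promoters on either strand. It was found by comparing these 4 sequences, so the comparison fixed that all 4 hold it. The short genes and Slfn4 are printed 5′ to 3′ with this run in capitals (Slfn2 at chr11:83064862-83065161, Slfn1 at chr11:83116570-83116869 and Slfn4 at chr11:83174936-83175235, plus strand), then Slfn5 (chr11:82951852-82952151, plus strand) and Slfn8 (chr11:83020761-83021060, minus strand) with the ISRE core in capitals.
Slfn2: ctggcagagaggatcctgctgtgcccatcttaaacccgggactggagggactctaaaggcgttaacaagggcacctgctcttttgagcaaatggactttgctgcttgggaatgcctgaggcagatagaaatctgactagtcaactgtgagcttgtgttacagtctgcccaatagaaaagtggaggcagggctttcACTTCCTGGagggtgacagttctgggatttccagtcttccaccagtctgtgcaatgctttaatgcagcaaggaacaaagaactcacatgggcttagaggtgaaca
Slfn1: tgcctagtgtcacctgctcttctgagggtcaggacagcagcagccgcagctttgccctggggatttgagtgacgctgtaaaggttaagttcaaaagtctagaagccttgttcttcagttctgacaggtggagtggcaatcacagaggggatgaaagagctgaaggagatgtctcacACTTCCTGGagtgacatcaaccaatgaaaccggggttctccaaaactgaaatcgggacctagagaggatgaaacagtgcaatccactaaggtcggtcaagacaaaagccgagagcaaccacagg
Slfn4: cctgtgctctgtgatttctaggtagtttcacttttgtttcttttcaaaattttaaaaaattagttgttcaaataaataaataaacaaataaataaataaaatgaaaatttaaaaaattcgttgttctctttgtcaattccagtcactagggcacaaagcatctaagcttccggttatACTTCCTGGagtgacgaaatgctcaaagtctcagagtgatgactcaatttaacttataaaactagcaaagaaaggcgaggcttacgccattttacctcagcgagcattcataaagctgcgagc
Slfn5: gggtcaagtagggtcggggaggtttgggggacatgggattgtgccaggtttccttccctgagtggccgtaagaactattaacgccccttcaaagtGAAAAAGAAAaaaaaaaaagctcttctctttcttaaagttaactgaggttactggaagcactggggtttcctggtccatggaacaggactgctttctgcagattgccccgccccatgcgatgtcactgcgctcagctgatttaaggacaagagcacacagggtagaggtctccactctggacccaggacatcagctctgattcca
Slfn8: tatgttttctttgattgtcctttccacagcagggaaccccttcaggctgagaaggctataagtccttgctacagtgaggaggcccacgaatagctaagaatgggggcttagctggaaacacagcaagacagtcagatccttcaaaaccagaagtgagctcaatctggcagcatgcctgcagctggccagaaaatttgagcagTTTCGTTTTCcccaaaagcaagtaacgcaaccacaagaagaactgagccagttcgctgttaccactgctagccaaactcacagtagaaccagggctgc

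The 12 compared libraries held 13085287 to 21216468 counted reads, so that 3 reads corresponded to 0.141 to 0.229 CPM by these unscaled totals. Elsewhere, unless library totals are named, CPM are reads of a gene relative to the TMM-scaled total of its library. Il10ra lay between 217 and 380 CPM in WT mice, between 4.89 and 11.2 CPM in IL10RAKO mice and between 3.41 and 7.59 CPM in DKO mice, and Ccr2 was at 3.92 to 6.68 CPM in DKO mice against 514 to 702 in WT, as labelled. The macrophage genes Csf1r (2000 to 4100 CPM over the compared mice) and Adgre1 (228 to 885 CPM), the latter encoding F4/80, were present in every library. Macrophage genes were not all level between genotypes. Of 12 listed, 2 were higher in IL10RAKO, and 1 was higher and 2 lower in DKO than in WT (edgeR, adjusted p under 0.05). Adgre1 was 1 of the lower genes in DKO, with a log2 fold change of -1.05, against -0.56 in IL10RAKO, which did not pass. WT mouse 11 stood apart by epithelial marker genes summing to 2500 CPM, against 44.5 to 982 in the other WT mice.

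Loss of Il10ra went with higher expression of both short Schlafen genes, while none of the intermediate or long members passed the test. Slfn1 was 5.17-fold and Slfn2 3.1-fold higher in IL10RAKO than in WT macrophages. The 2 of 7 members called (edgeR quasi-likelihood test, adjusted p under 0.05 over all genes tested) stood against 15.8% of all genes called, and 8.7% of all genes called higher. The members' median log2 fold change was 0.31, against -0.07 over all genes tested.

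Slfn2, the quiescence factor, was the most abundant member per length in every mouse. It was at 345, 368, 259 and 383 CPM in WT mice 4, 5, 10 and 13. It was at 887, 1330, 907 and 1090 CPM in IL10RAKO mice 1, 2, 7 and 8. In DKO mice 3, 9, 12 and 14 it was at 863, 1040, 633 and 789 CPM. Every mouse lacking Il10ra lay above every WT mouse, whereas the IL10RAKO and DKO mice overlapped. The log2 fold change was 1.63 ± 0.20 (SE) in IL10RAKO (95% interval 1.21 to 2.05, edgeR adjusted p = 6.63e-05) and 1.30 ± 0.19 in DKO (0.88 to 1.71, adjusted p = 0.000339), the latter 2.45-fold.

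Slfn1, the founding member, whose forced expression slows the growth of T cells in culture and in mice, was far lower in abundance than Slfn2. It was at 11.2, 6.62, 11.4 and 7.46 CPM in WT mice 4, 5, 10 and 13. It was at 61.2, 45.5, 30.3 and 53.4 CPM in IL10RAKO mice 1, 2, 7 and 8. In DKO mice 3, 9, 12 and 14 it was at 42.5, 39.7, 36.8 and 30.3 CPM. Again no mouse lacking Il10ra fell within the WT range, and the DKO values lay inside the lower part of the IL10RAKO range. The log2 fold change was 2.37 ± 0.25 (SE) in IL10RAKO (1.83 to 2.90, edgeR adjusted p = 2.08e-05) and 2.02 ± 0.25 in DKO (1.49 to 2.55, adjusted p = 6.23e-05), the latter 4.06-fold. With WT mouse 11, which had 0 Slfn1 reads, added to the fit, the edgeR adjusted p was 0.0182 and 0.0313 for these contrasts.

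**Figure D1:**
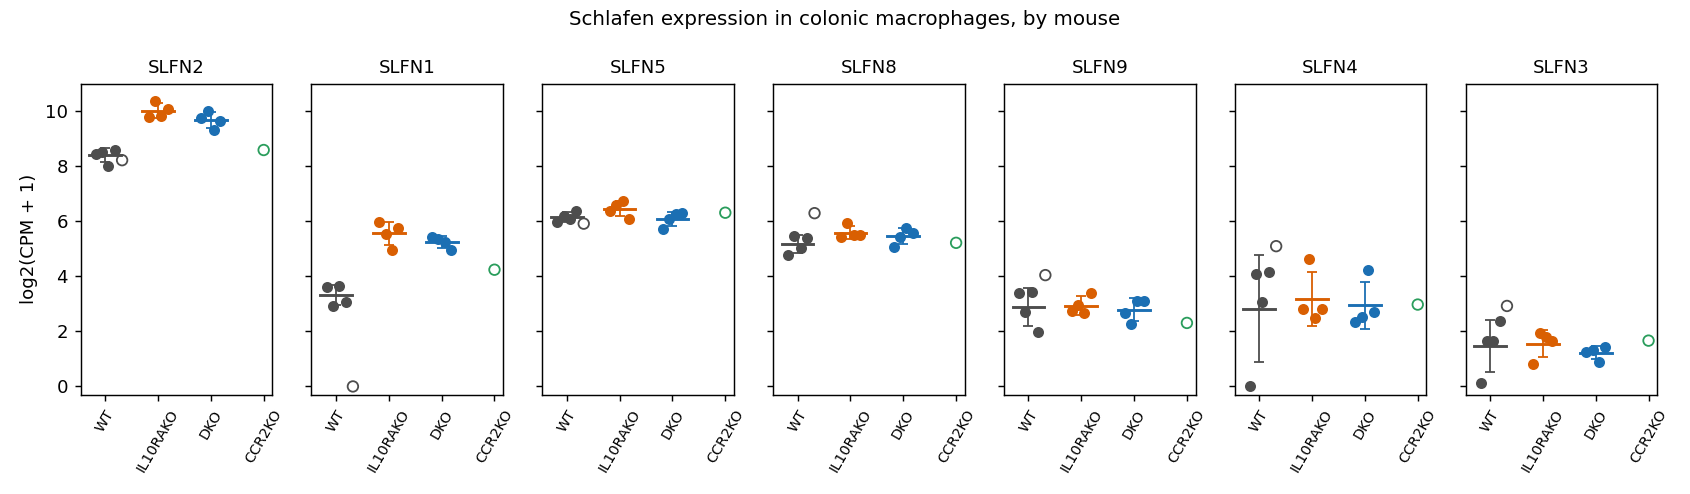
Expression of the 7 Schlafen genes by mouse, as log2(CPM + 1), with 1 point per mouse, the group mean as a line and the SD as a bar. Open circles are WT mouse 11 and the single CCR2KO mouse, which were outside the means. For SLFN2 and SLFN1 all IL10RAKO and DKO points lie above the WT points of the fit, and for the other members the groups overlap.

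Among the long members Slfn5, whose human counterpart is a nuclear repressor of transcription, stayed within a narrow range. It was at 61.7, 72.8, 66.4 and 81.2 CPM in WT mice 4, 5, 10 and 13. It was at 82.6, 95, 105 and 67.6 CPM in IL10RAKO mice 1, 2, 7 and 8. In DKO mice 3, 9, 12 and 14 it was at 51.8, 66.0, 75.6 and 77.4 CPM. The 3 groups overlapped, with IL10RAKO mouse 7 the highest and DKO mouse 3 the lowest. The log2 fold change against WT was 0.31 ± 0.18 (SE) in IL10RAKO (-0.07 to 0.69, edgeR adjusted p = 0.269) and -0.06 ± 0.18 in DKO (-0.44 to 0.32, adjusted p = 0.86), intervals that both ended below a doubling.

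Slfn8, a long member and close copy of Slfn9, was at 26.5, 43.4, 31.3 and 40.9 CPM in WT mice 4, 5, 10 and 13. It was at 42.4, 59.9, 44.0 and 44.0 CPM in IL10RAKO mice 1, 2, 7 and 8. In DKO mice 3, 9, 12 and 14 it was at 32.4, 42.6, 53.0 and 46.5 CPM. The IL10RAKO mice sat at the top of the WT range or above it, but the ranges met. The log2 fold change was 0.42 ± 0.21 (SE) in IL10RAKO (-0.02 to 0.86, edgeR adjusted p = 0.189) and 0.30 ± 0.21 in DKO (-0.14 to 0.74, adjusted p = 0.348). Slfn9 lay between 2.93 and 9.9 CPM in WT mice, between 5.31 and 9.58 CPM in IL10RAKO mice and between 3.8 and 7.66 CPM in DKO mice, with log2 fold changes of -0.04 ± 0.39 and -0.20 ± 0.39. When the reads of Slfn8, Slfn9 and Slfn10-ps were summed, the log2 fold change was 0.43 ± 0.18 in IL10RAKO (edgeR adjusted p = 0.125) and 0.29 ± 0.18 in DKO (adjusted p = 0.279).

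The intermediate members were low, and Slfn4 varied most between mice of a genotype. Slfn4, a gene of myeloid cells that marks suppressor cells of the infected stomach, was at 0, 16.0, 7.37 and 16.9 CPM in WT mice 4, 5, 10 and 13. It was at 6.05, 23.7, 4.55 and 6.08 CPM in IL10RAKO mice 1, 2, 7 and 8, and at 4.03, 4.79, 17.6 and 5.44 CPM in DKO mice 3, 9, 12 and 14. In each mutant group 1 mouse was far above the other 3, and among the WT mice 1 had no Slfn4 read. The log2 fold change was 0.01 ± 0.92 (SE) in IL10RAKO (-1.97 to 1.99) and -0.34 ± 0.93 in DKO (-2.32 to 1.65), intervals that included a change of the size seen for Slfn2 in either direction.

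Slfn3, the close copy of Slfn4, was at 0.0955 CPM (2 reads) in WT mouse 4, the mouse without Slfn4 reads, and at 2.17, 2.11 and 4.2 CPM in WT mice 5, 10 and 13. It was at 0.765 to 2.86 CPM in IL10RAKO and 0.843 to 1.73 CPM in DKO mice. The groups overlapped at 2 to 63 reads per mouse, and the log2 fold changes were -0.04 ± 0.75 (SE, -1.64 to 1.56) and -0.64 ± 0.76 (-2.26 to 0.98). WT mouse 13 and IL10RAKO mouse 2 had the most of both genes in their groups, whereas DKO mouse 12 had the most Slfn4 and the least Slfn3 of its group. Of the other rows, the pseudogene Slfn10-ps differed by 0.82 ± 0.31 (log2, SE) between IL10RAKO and WT mice (edgeR adjusted p = 0.0883), Slfn14 had 0 to 11 reads and the distant relative Slfnl1 0 to 1 reads per mouse.

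In DKO against WT macrophages the same pair of members was called, Slfn1 and Slfn2, and the other 5 did not pass the test. That was 2 of 7 against 18.5% of all genes called and 9.23% called higher, with a members' median of -0.06, equal to the -0.06 over all genes. This comparison shared its WT mice with the IL10RAKO comparison. The ranges of 2 of 7 members did not overlap with WT in either comparison, where this held for 18.2% of all genes in IL10RAKO and 22.2% in DKO.

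Additional loss of Ccr2 brought no called change in the family. Between DKO and IL10RAKO 0 of 7 members were called by edgeR, limma-voom or DESeq2 and 0 had an unadjusted edgeR p under 0.05, against 0.0457% of all genes called. No member's ranges were apart, against 2.41% of all genes. All 7 log2 fold changes were below 0, from -0.60 to -0.13 with a median of -0.35, against -0.01 over all genes, and for Slfn4, Slfn8 and Slfn9 the sign depended on a single mouse. The difference was -0.35 for Slfn1 (-0.85 to 0.16), -0.34 for Slfn2 (-0.75 to 0.07) and -0.37 for Slfn5 (-0.75 to 0.01), so that the intervals left room for a fall of part of the rise seen against WT but, for Slfn1 and Slfn2, not for its loss.

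**Figure D2:**
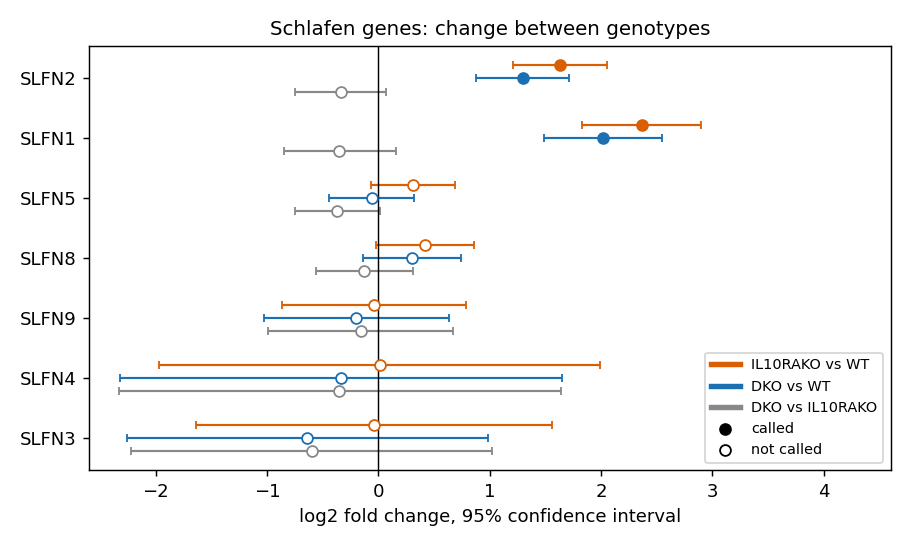
Log2 fold changes of the 7 Schlafen genes in the 3 comparisons, with 95% confidence intervals. Filled points passed an edgeR adjusted p of 0.05: SLFN1 and SLFN2 against WT, from 1.30 to 2.37. The intervals of SLFN3 and SLFN4 are the widest.

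Per length, the order of the members itself differed between genotypes. As CPM per kb of exon, WT macrophages had Slfn2 at 204 ± 33.4 (SD, n = 4), Slfn5 at 11.1 ± 1.34, Slfn8 at 8.68 ± 1.95 and Slfn1 at 4.92 ± 1.33, in this order in 4 of 4 mice. Slfn4 (2.54), Slfn9 (1.17) and Slfn3 (0.628) followed, an order that failed in at least 1 WT mouse at each step, also between Slfn1 and Slfn4. In IL10RAKO macrophages Slfn1 stood second at 25.5 ± 7.07 CPM per kb behind Slfn2 at 632 ± 122, ahead of Slfn5 at 13.8 ± 2.55 and Slfn8 at 11.6 ± 2.02. Slfn1 exceeded Slfn5 per kb in 0 of 4 WT, 3 of 4 IL10RAKO and 4 of 4 DKO mice. In DKO macrophages Slfn2 was at 500 ± 102, Slfn1 at 20.0 ± 2.81, and Slfn5 and Slfn8 were both at 10.7 CPM per kb.

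The make-up of the Schlafen reads followed these levels. All Schlafen rows together were at 485 ± 68.5 CPM (SD, n = 4) in WT, 1270 ± 224 in IL10RAKO and 1010 ± 156 in DKO mice. Slfn2 took 69.8 ± 4.03% of these reads in WT, 82.6 ± 1.92% in IL10RAKO and 81.9 ± 4.76% in DKO mice, with 74.7% in the highest WT and 75.4% in the lowest DKO mouse. The share of Slfn5 was 14.6 ± 1.44%, 7.05 ± 1.83% and 6.88 ± 1.90% in the same order, and that of Slfn1 was 1.97 ± 0.793%, 3.83 ± 1.33% and 3.74 ± 0.644%. Shares add up to the whole, so a higher Slfn2 lowers the share of Slfn5, whose own level was 70.5, 87.5 and 67.7 CPM on average.

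**Figure D3:**
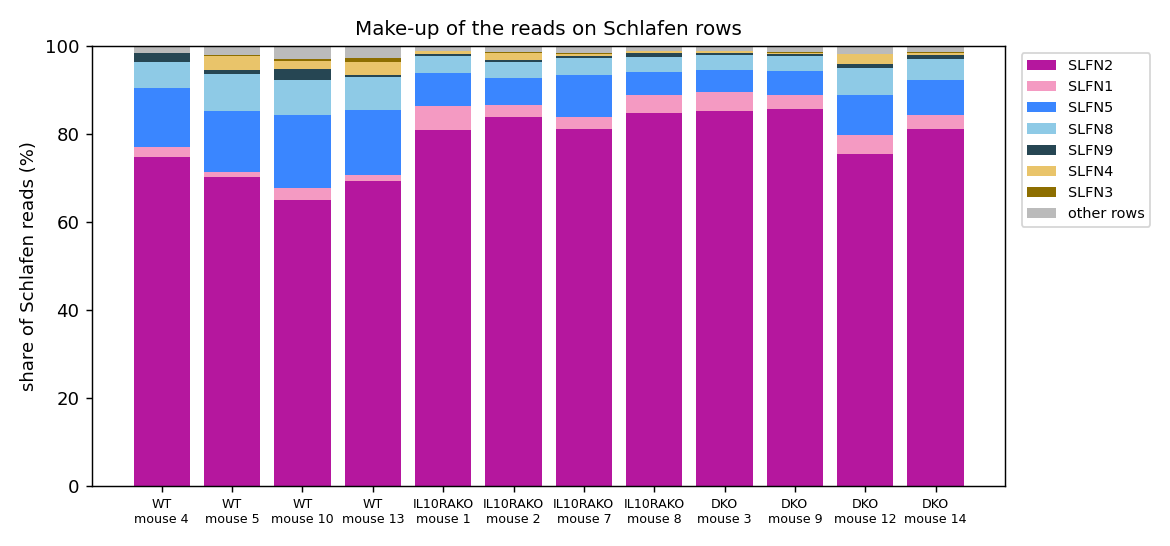
Share of the reads on all Schlafen rows taken by each gene, 1 bar per mouse. SLFN2 takes 64.9 to 74.7% in the WT mice and 75.4 to 85.6% in the mice lacking Il10ra, and SLFN5 takes less in the latter. Shares are of reads, so long genes weigh more than short ones.

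Ratios within a library do not depend on its scaling. The log2 ratio of Slfn2 to Slfn5 reads was 2.26 ± 0.22 (SD, n = 4) in WT, 3.59 ± 0.40 in IL10RAKO and 3.61 ± 0.48 in DKO mice. The ratio of Slfn1 to Slfn5 was -2.98 ± 0.55, -0.91 ± 0.67 and -0.85 ± 0.45 in the same order. Each of these 4 differences from WT, of 1.33 and 1.36 for Slfn2 and 2.07 and 2.12 for Slfn1, had a 2-sided exact permutation p of 0.0286, the smallest that 4 against 4 mice can give, and an adjusted p of 0.0686 over 12 ratio tests chosen with the values known. The ratio of Slfn1 to Slfn2 was 0.74 higher in IL10RAKO (exact permutation p = 0.114) and 0.77 higher in DKO than in WT mice (p = 0.0857). For this ratio the range of either group overlapped that of the WT mice. The ratio of Slfn8 to Slfn5 was 0.14 higher in IL10RAKO (exact permutation p = 0.486) and 0.37 higher in DKO mice (p = 0.0286, adjusted 0.0686).

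Called genes around the cluster lay in both directions. Within 500 kb of either end of the cluster lay 33 other genes of the table, of which 20 were tested. In IL10RAKO 3 were called higher and 2 lower, and in DKO 3 higher and 3 lower, with medians of 0.01 and -0.04. These 5 and 6 calls among 20 genes stood against the 15.8% and 18.5% of all genes called. Next to the cluster, Nle1, Unc45b, AI662270 and Ap2b1 were not called in either comparison. Called were Rffl, a ubiquitin ligase gene (1.37 in both), and at 463 kb or more from the start of Slfn2 the chemokine genes Ccl5 (4.84 in IL10RAKO, 4.43 in DKO) and Ccl6 (-1.10 and -1.95), Ccl9 in DKO only (-2.14, against -0.78 in IL10RAKO), and 2 genes at few reads. Of these, the noncoding E230016K23Rik was covered by 25 to 72 reads per WT mouse, by 4 to 12 without Il10ra and by 0 to 2 without both genes, and was called lower in both comparisons. Wfdc21 had 0 to 1, 2 to 58 and 31 to 57 reads in this order and was called higher in both. The difference for Ccl9 between DKO and IL10RAKO was not called.

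**Figure D4:**
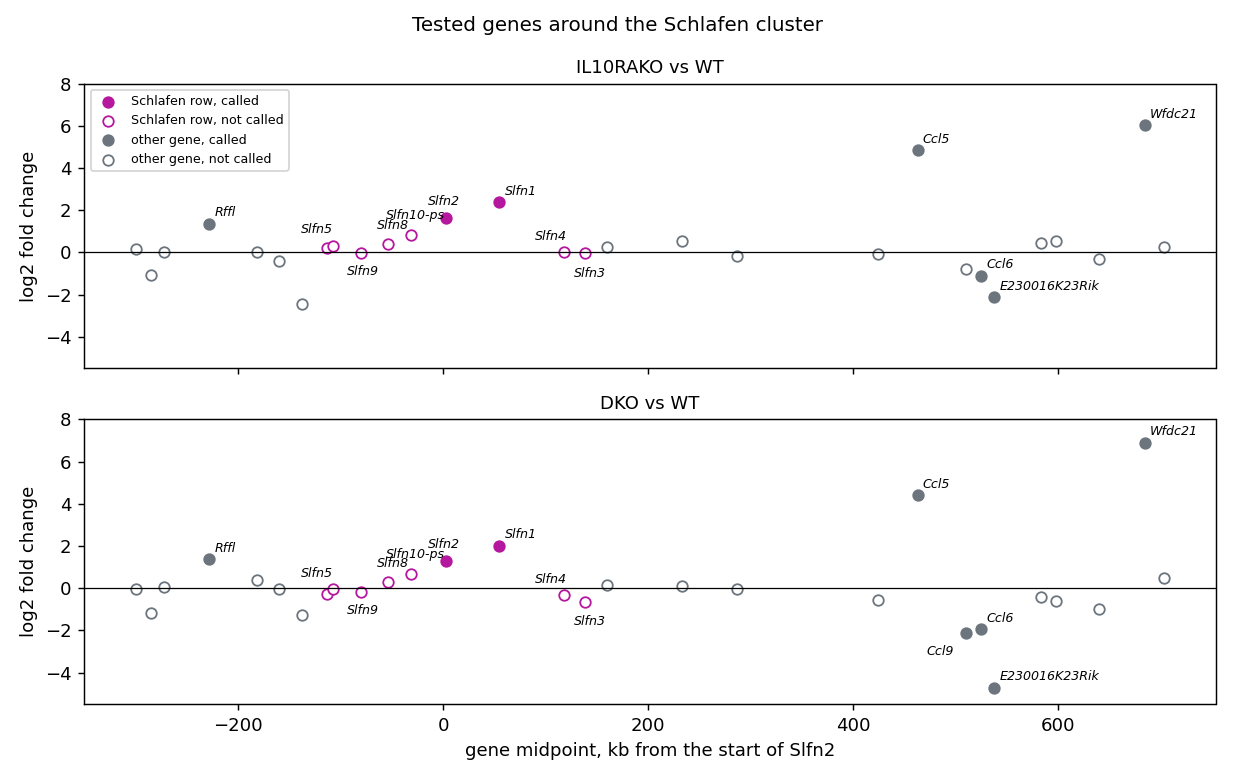
Log2 fold changes against WT of the tested genes in and around the Schlafen cluster, by the distance of each gene's midpoint from the start of Slfn2 in kb. Filled points were called. Slfn2 and Slfn1 are the called points inside the cluster, and the fitted value of Wfdc21 rests on 0 to 1 reads in the WT mice.

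The interferon pathway, to which the family is known to respond, was followed in lists of the count table. Of 17 receptors, kinases and regulators of interferon signalling, 8 were higher in IL10RAKO and 7 in DKO than in WT, with none lower and medians of 0.61 and 0.50. The transcription factor gene Irf1 had log2 fold changes of 1.75 and 1.74 and the feedback inhibitor Socs1 2.30 and 2.54, whereas the kinase genes Jak1 (-0.06 and 0.10) and Tyk2 (0.04 and 0.19) did not pass. Among 6 interferon genes 2 were tested: Ifng was higher in both (3.05, edgeR adjusted p = 0.019, and 3.12, adjusted p = 0.0148), and Ifnb1 was not called (1.98, adjusted p = 0.175, and -1.03, adjusted p = 0.492).

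Of 24 classical antiviral interferon-stimulated genes, 13 were higher in IL10RAKO, and 10 were higher and 1 lower in DKO than in WT macrophages, with medians of 0.88 and 0.63. The ubiquitin-like Isg15 had log2 fold changes of 2.88 and 2.43 and the nucleic acid sensor gene Zbp1 2.35 and 2.19. Mx1 (0.46 and -0.18) and Mx2 (-0.15 and -1.26), dynamin-like antiviral GTPase genes, did not pass. Of 13 cell division genes, the process that Schlafen proteins are known to restrain, 1 was higher in IL10RAKO (Mki67, 1.06) and 0 were called in DKO mice by edgeR.

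The genes whose levels over the 12 libraries ran closest to Slfn2, by root mean square difference of centred log2 (CPM + 1), were Bcl2a1d (0.16), Pde4b (0.17) and Nfkbie (0.17). For Slfn1 they were Tap1 (0.26), Ggct (0.28) and Glrx (0.28). Slfn1 and Slfn2 differed from each other by 0.50 on this scale. Slfn5 and Slfn8 differed by 0.23 from each other and by 0.71 and 0.61 from Slfn2, while no gene came closer to Slfn4 than 0.62 (Ttll4). The root mean square of a gene's own centred values was 0.26 for Slfn5, 0.30 for Slfn8, 1.04 for Slfn1 and 0.74 for Slfn2. Genes that vary little also differ little from each other, so the 0.23 and the 0.50 do not rank how closely these pairs run together.

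Marker genes of other cells moved with the genotypes in the same libraries. The monocyte gene Ly6c2 stood between 5.8 and 7.64 CPM in WT mice, between 38.4 and 177 CPM in IL10RAKO mice and between 74.9 and 89 CPM in DKO mice, although the sort kept Ly6C- cells. The other monocyte markers, summed with Ly6c2 but without the deleted Ccr2, were at 142 to 194, 474 to 1410 and 700 to 890 CPM in the same order. The neutrophil list (9 genes, 6 of 7 tested higher in both comparisons) summed to 76.1 to 126, 145 to 344 and 218 to 294 CPM, with S100a9 and Camp at 0 reads in all 4 WT mice. Most of this sum was Csf3r, at means of 87.3, 198 and 181 CPM. S100a9 was at means of 0, 11.3 and 12.1 CPM and Cxcr2 at 0.0414, 0.882 and 1.53 CPM. Of 7 dendritic cell markers 3 were higher and 1 lower in IL10RAKO, and 2 higher and 1 lower in DKO mice. Their sum of 241 to 1040, 1430 to 1860 and 1020 to 1780 CPM was mainly Ccr7, while Siglech, a plasmacytoid dendritic cell gene, was lower at means of 22.2, 1.67 and 0.813 CPM. The 6 fibroblast markers summed to 294 to 577, 15.0 to 53.7 and 16.1 to 67.0 CPM, with all 6 lower in both comparisons. Of the 5 endothelial markers tested 3 were lower in both, T and NK cell markers gave 0 and 1 called, and B cell and epithelial markers 0 in both by edgeR. The part of these cells in the Schlafen differences was not tested, and in bulk libraries a larger share of cells that express a gene cannot be told apart from more RNA per cell.

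The single CCR2KO mouse had Slfn2 at 384 CPM and Slfn1 at 17.9 CPM, without a replicate. Its Slfn2 was level with the highest WT mouse (383), and its Slfn1 lay above the WT mice (6.62 to 11.4) and below every mouse lacking Il10ra. Slfn5 was at 78.4 CPM and Slfn8 at 36.2 CPM in this mouse, inside the WT ranges.

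Scaling bore on the weaker members. With library totals in place of TMM factors the median log2 fold change of all genes shifted to -0.38 in IL10RAKO and -0.32 in DKO, and 23.8% and 25.9% of calls were higher in place of 55.1% and 50.0%. Slfn1 (2.05 and 1.77) and Slfn2 (1.31 and 1.03) were still called against this shift, and the value of Slfn5 in IL10RAKO became 0.00. No label says that mice of a group came from separate litters or days. The p-values and the intervals of the log2 fold changes therefore measure the spread between these mice. The CPM given for 3 reads concern counting only and not this spread.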

How the data were processed

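RNA-seq libraries (SMART-Seq v4 cDNA, paired-end reads) came from 14 mice. Per the study's methods, bcl2fastq 2.20 and STAR 2.5.1b with mm10 were used, names were harmonised with biomaRt and edgeR 3.34.0 was run. The gene annotation, strand setting and treatment of multi-mapped reads are not given in the sources used here. The authors deposited raw counts per gene, not normalized, for all 14 libraries. A further deposited table of edgeR pseudocounts, a score scaled by the authors, covered 12 libraries and served only to show which libraries they kept.

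Counts were filtered (filterByExpr, minimum count 10), scaled by TMM and tested with edgeR 4.0.16 (glmQLFit with the earlier deviance, glmQLFTest), all 3 genotypes in 1 fit without covariates, with Benjamini-Hochberg adjustment over 13136 genes. The 12 libraries held 13085287 to 21216468 reads. The script was tested on simulated data. Alternatives were RLE and no scaling factors, DESeq2 1.42.0, limma-voom 3.58.1, other dispersions and filters, 2 genotypes only, WT mouse 11 added, each mouse left out, and close copies summed. Exon lengths came from GENCODE vM21, where 24490 of 24982 symbols were found, and promoters from RefSeq. Named genes were the Schlafen rows, genes within 500 kb of the cluster, up to 4 called and 2 uncalled genes per list, marker genes and the 3 genes nearest each member. In the text only some of these are given, and Csf1r and Adgre1, which were not among the sort gates, were added as macrophage genes. Members and lists were chosen with earlier results of these data known, and the ratios and the shared promoter run after the values and sequences were seen.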

Additional observations from a re-analysis of the deposited data

Results flagged for a closer look

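In log2(CPM + 1), single mice stood apart from their group by Dixon's test in 5 of 36 groups of 4 or 5 mice, where chance gives about 5%. IL10RAKO mouse 2 was at 4.63 for Slfn4 (the others 2.47 to 2.82) and at 5.93 for Slfn8 (5.44 to 5.49), and DKO mouse 9 was at 3.88 for Slfn10-ps (3.32 to 3.35). WT mouse 11 was at 0.00 for Slfn1, with 0 reads (the others 2.93 to 3.64), and at 5.12 for Slfn10-ps (2.41 to 3.18).

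In the libraries outside the fit, the CCR2KO mouse had Slfn1 at 17.9 CPM (WT 6.62 to 11.4) and Slfn2 at 384 CPM (WT 259 to 383). WT mouse 11 lay above the other WT mice for Slfn3 at 6.59 CPM (0.0955 to 4.2), Slfn4 at 33.2 CPM (0 to 16.9), Slfn8 at 77.5 CPM (26.5 to 43.4) and Slfn9 at 15.5 CPM (2.93 to 9.9). These are single libraries, and the differences were not tested.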

How the results depend on the processing

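Slfn1 and Slfn2 were called against WT under all 11 alternatives that left out no single mouse and in all 12 fits without 1 mouse, and no other member was called under any of them. In IL10RAKO the log2 fold change without 1 mouse ranged from 2.23 to 2.54 for Slfn1 and from 1.51 to 1.71 for Slfn2. In DKO it ranged from 1.90 to 2.15 and from 1.18 to 1.41. The counts of members called were unchanged in these fits. Values of uncalled members moved more: Slfn4 in IL10RAKO ranged from -0.85 without IL10RAKO mouse 2 to 1.86 with limma-voom, and between DKO and IL10RAKO from -1.08 without DKO mouse 12 to 0.52 without IL10RAKO mouse 2. The mean of Slfn5 in WT was 80.6 CPM with library totals, against 70.5. Over all genes DESeq2 called 24 between DKO and IL10RAKO, and edgeR without IL10RAKO mouse 2 called 10, against 6. No paired analysis was possible because each mouse has its own number and no number is shared between groups. Slfn3, the member with the fewest reads, had 2 to 63 per mouse, and whether depth or the spread between mice set its wide interval was not tested.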
